A study of Homo sapiens with 12 samples.

Results

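The semaphorins, plexins, neuropilins, SLITs and ROBOs are ligands and receptors first known for steering growing axons, and epithelial and tumour cells use them as well. The members described here were picked by gene symbol, as SEMA3 to SEMA7, PLXNA to PLXND, NRP1 and NRP2, SLIT1 to SLIT3 and ROBO1 to ROBO4. These families were chosen with earlier results of these data known. The members were 37 of the 24556 symbols in a deposited table of RNA sequencing values. They comprised 20 semaphorins, 9 plexins, 2 neuropilins, 2 SLITs and 4 ROBOs. No values were listed under the symbol SLIT1. The cells were LM2, a line selected in mice for spread to the lung from MDA-MB-231, a human breast cancer line. In all, 12 libraries fell into 4 groups of 3. LM2 cells transduced with an EZH2 short hairpin RNA (shRNA) had cells transduced with a scramble shRNA as their control, and LM2 cells transfected with a ZRANB1 small interfering RNA (siRNA) had cells transfected with a scramble siRNA as theirs. EZH2 is the enzyme by which a Polycomb complex methylates histone H3 and keeps genes silent, and ZRANB1 is a deubiquitinase. The labels named no hairpin or siRNA sequence and did not say whether a group came from separate cultures or from 1 clone, and the p-values below rest on a spread between libraries that may be only technical.

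Semaphorins signal through plexins. Class 3 semaphorins are secreted and mostly bind a neuropilin that sits beside a plexin of the A type or PLXND1, classes 4 to 6 are transmembrane proteins that bind plexins directly, and SEMA7A is held to the membrane by a lipid anchor and binds PLXNC1 and integrins. Plexins carry a GTPase-activating domain inside the cell that acts on small GTPases and loosens adhesion and the actin skeleton. SLITs are large secreted proteins that bind ROBO receptors and mostly repel the cell that carries them. SEMA3B, SEMA3F and SLIT2 are described in the literature as suppressors of growth or spread in several carcinomas, whereas SEMA7A and SEMA3C are described as promoting invasion in breast cancer.

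Levels were given as FPKM, a count of fragments scaled by the length of the transcript and the size of the library, so that levels of different genes can be compared per length. In each row, the 3 values of a group were sorted as text, digit by digit. A column therefore did not follow 1 library, and each gene's values are given here from low to high with no library attached. The depth behind a value was unknown. A total of 24 members averaged 1 FPKM or more across all 12 values and were tested with limma on log2(FPKM + 1) among 11929 genes, with Benjamini-Hochberg adjustment over all of them. Here "called" means that this adjusted p was under 0.05. The other 13 members lay under this filter and are described by their values. Fold changes are on the log2(FPKM + 1) scale, which understates the change of low genes. These are bulk measurements of a culture, in which fewer cells that express a gene and less RNA per cell cannot be told apart.

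The targeted genes were compared first. EZH2 stood at 16.1, 16.1 and 17.3 FPKM with EZH2 shRNA, against 34.2, 35.6 and 36.3 FPKM with scramble shRNA, a log2 fold change of -1.06 with a standard error of 0.069. ZRANB1 stood at 9.06, 9.49 and 11.5 FPKM in libraries labelled ZRANB1 siRNA, against 10.5, 11.5 and 12.1 FPKM with scramble siRNA. These ZRANB1 values overlapped. The log2 fold change was -0.17, its 95% interval ran from -0.42 to 0.076, and it did not pass (adjusted p 0.349). A lower target level was thus not shown for the libraries labelled ZRANB1 siRNA, and directions drawn from them below are those of libraries so labelled. EZH2 itself was lower there too, at 28.3, 30.4 and 32.4 FPKM against 46.5, 48.7 and 50.6 FPKM with scramble siRNA (adjusted p 5.43e-05). The controls differed in EZH2 as well, with scramble siRNA higher than scramble shRNA by 0.447 on the log2 scale (adjusted p 2.31e-04).

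With EZH2 shRNA, 1 of the 24 tested members was called, the axon repellent SEMA3A, which was higher. That is 4.17% of the members, beside 6.41% of all tested genes (3.39% of genes higher and 3.03% lower). The share of all genes fell to 1.55% when the compared groups were fitted alone, with the same 1 member called, and with no intensity trend 3 members were called beside 6.44% of genes. In libraries labelled ZRANB1 siRNA, 8 members were higher and 3 lower than with scramble siRNA. That is 45.8% of the members, beside 16.6% of all tested genes (10.1% of genes higher and 6.5% lower). Between both controls, scramble siRNA gave 5 higher and 12 lower members relative to scramble shRNA. That is 70.8% of the members, beside 50.6% of all tested genes (25.5% of genes higher and 25.1% lower). PLXNC1, 1 of the 5 higher, averaged 1 FPKM only through the siRNA groups, where it is higher, so it lends this count no support. The groups did not overlap for 9 members in the EZH2 comparison (22.1% of all tested genes), for 14 in the ZRANB1 comparison (36.4% of genes) and for 17 between the controls (59.9% of genes). The scramble siRNA group is the control of the ZRANB1 comparison as well, and the scramble shRNA group that of the EZH2 comparison, so each of these comparisons shares 3 libraries with the comparison of the controls, and their values are given side by side. The members' median log2 fold change was 0.075 with EZH2 shRNA, 0.17 in libraries labelled ZRANB1 siRNA and -0.42 between the controls, while the medians over all tested genes were -0.014, -0.017 and 0.011. These shares and medians describe the members and are not tests of them as a group.

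**Figure D1:**
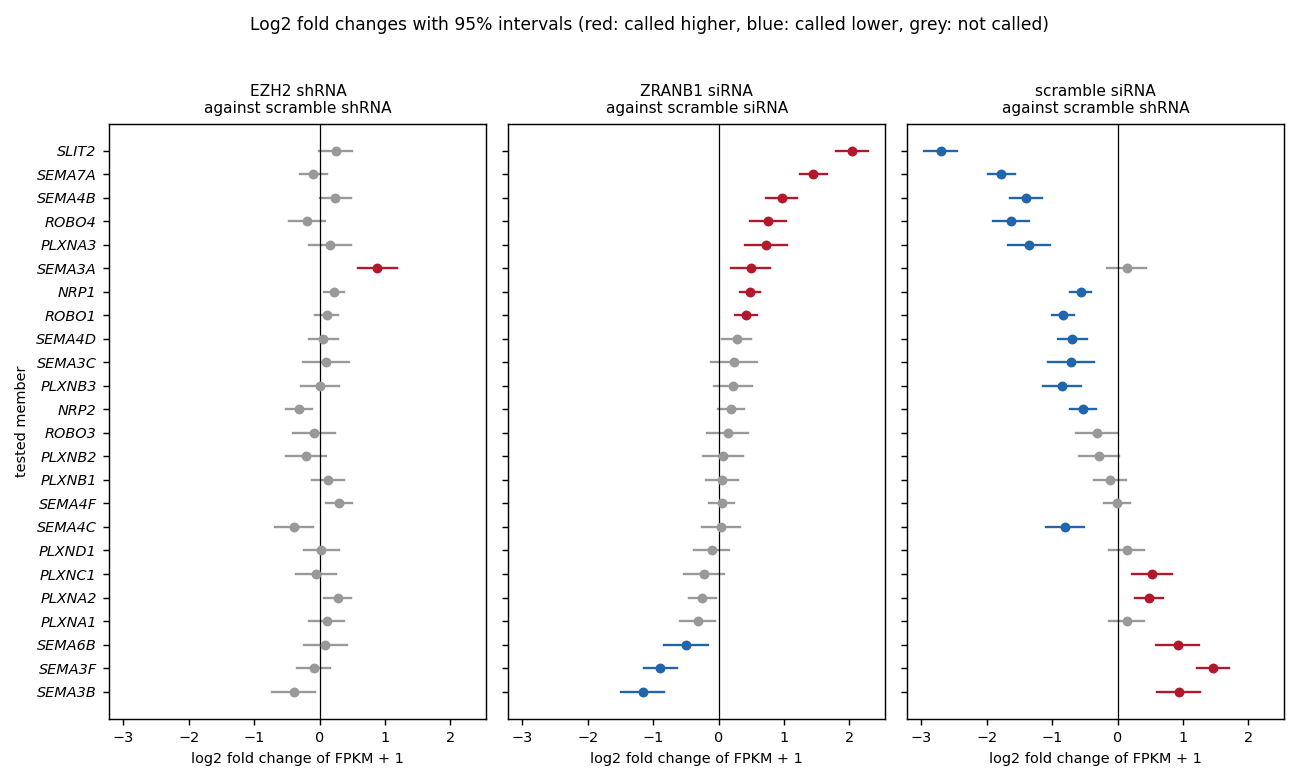
Log2 fold changes (points) with 95% intervals (lines) of the 24 tested members, one panel for each comparison, on the log2(FPKM + 1) scale. With EZH2 shRNA 1 member was called (SEMA3A), in libraries labelled ZRANB1 siRNA 8 were called higher and 3 lower, and between the controls 5 were called higher and 12 lower with scramble siRNA.

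SLIT2, the secreted ligand of ROBO1, had the largest log2 difference among the members in libraries labelled ZRANB1 siRNA. It stood at 7.08, 7.25 and 8.28 FPKM there, against 0.788, 1.202 and 1.25 FPKM with scramble siRNA. The groups did not overlap, and the mean was 6.97 times that with scramble siRNA, a log2 fold change of 2.04 (standard error 0.113, adjusted p 2.84e-07). SLIT2 had 13.6, 14.3 and 17.3 FPKM with EZH2 shRNA, against 11.7, 12.4 and 13.4 FPKM with scramble shRNA. The lowest EZH2 shRNA value lay above the highest control value, but the log2 fold change of 0.24 was not called, with an adjusted p of 0.242. With scramble siRNA, SLIT2 was the farthest from the scramble shRNA level of all tested members, with a log2 difference of -2.70 between the controls (adjusted p 8.33e-09). The level labelled ZRANB1 siRNA, 7.54 ± 0.652 FPKM (SD, n = 3), lay between the means of both controls. The third SLIT, SLIT3, was listed at 0 in 10 of the 12 values and reached 0.0320 FPKM at most.

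Of the SLIT receptors, ROBO1 and ROBO4 were called higher in libraries labelled ZRANB1 siRNA. ROBO1, the main receptor of SLIT2 on epithelial cells, had 9.47, 9.55 and 9.64 FPKM there, against 6.64, 6.75 and 7.30 FPKM with scramble siRNA, a log2 fold change of 0.42 (standard error 0.077, adjusted p 0.0034). ROBO4 had 13.0, 13.3 and 16.7 FPKM, against 7.65, 7.67 and 8.99 FPKM with scramble siRNA, a log2 fold change of 0.75 (standard error 0.126, adjusted p 0.00185). Neither receptor's groups overlapped in this comparison. With EZH2 shRNA, ROBO1 had 12.7, 13.9 and 15.9 FPKM against 12.8, 13.0 and 13.3 FPKM with scramble shRNA. ROBO4 had 19.6, 23.4 and 28.1 FPKM with EZH2 shRNA, against 26.6, 27.3 and 27.3 FPKM with scramble shRNA. These values overlapped for both genes, and neither was called (adjusted p 0.476 and 0.409). ROBO3, which in the developing nervous system counters repulsion by SLIT, ranged from 4.76 to 7.94 FPKM over the 12 values and was called in no comparison. ROBO2 stayed under 0.1 FPKM in all 12 values. In summed group means, ROBO transcripts came to 44.5 FPKM with EZH2 shRNA, 47.2 FPKM with scramble shRNA, 30.1 FPKM in libraries labelled ZRANB1 siRNA and 20.5 FPKM with scramble siRNA.

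ROBO4 is known mainly from endothelial cells, whose markers were therefore read beside it. Of 8 endothelial markers, 1 was tested, the junction gene ESAM, at group means of 33.8 FPKM with EZH2 shRNA, 28.6 FPKM with scramble shRNA, 35.8 FPKM in libraries labelled ZRANB1 siRNA and 34.5 FPKM with scramble siRNA. CDH5, VWF and TEK, which define endothelial cells, had group means of at most 0.0526 FPKM. Each of these genes was lowest with scramble siRNA, as ROBO4 was. The summed level of the 8 markers, most of it from ESAM, ran from 31.1 to 37.3 FPKM over the groups. The sum was lowest with scramble shRNA and highest in the libraries labelled ZRANB1 siRNA, as ESAM itself was. Of the other 4, PECAM1 shared the order of ROBO4. It had group means of 1.09 FPKM with EZH2 shRNA, 1.57 FPKM with scramble shRNA, 0.678 FPKM in libraries labelled ZRANB1 siRNA and 0.316 FPKM with scramble siRNA. TIE1 was also lowest with scramble siRNA, but highest with EZH2 shRNA, at 1.26 FPKM with EZH2 shRNA, 0.523 FPKM with scramble shRNA, 0.672 FPKM in libraries labelled ZRANB1 siRNA and 0.182 FPKM with scramble siRNA. CLDN5 was lowest in libraries labelled ZRANB1 siRNA, at 0.0639 FPKM, and highest with scramble shRNA, at 0.307 FPKM. EMCN had group means of at most 0.0120 FPKM. The part of these markers in the ROBO4 result was not tested.

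SEMA7A, the membrane-anchored semaphorin, and SEMA4B, a transmembrane one, were the most abundant semaphorins except with scramble siRNA. SEMA7A had 48.3, 53.1 and 56.6 FPKM in libraries labelled ZRANB1 siRNA, against 17.4, 18.9 and 19.7 FPKM with scramble siRNA. The groups lay far apart, with a log2 fold change of 1.45 (standard error 0.094, adjusted p 1.12e-06). SEMA4B had 41.4, 44.2 and 52.7 FPKM in libraries labelled ZRANB1 siRNA, against 20.7, 24.1 and 24.3 FPKM with scramble siRNA, a log2 fold change of 0.96 (standard error 0.111, adjusted p 1.15e-04). With EZH2 shRNA, SEMA7A had 57.5, 61.7 and 67.5 FPKM, against 59.6, 68.5 and 72.2 FPKM with scramble shRNA. SEMA4B had 66.7, 76.6 and 78.3 FPKM with EZH2 shRNA, against 56.1, 62.7 and 68.2 FPKM with scramble shRNA. Both genes overlapped between these groups and were not called, with log2 fold changes of -0.099 (95% interval -0.31 to 0.11) for SEMA7A and 0.24 (adjusted p 0.233) for SEMA4B. Between the controls, SEMA7A was lower by 1.78 and SEMA4B by 1.40 on the log2 scale with scramble siRNA.

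SEMA3B and SEMA3F, secreted semaphorins that signal through neuropilins, went the other way. SEMA3B had 6.14, 7.74 and 9.18 FPKM in libraries labelled ZRANB1 siRNA, against 15.9, 18.2 and 20.9 FPKM with scramble siRNA, a log2 fold change of -1.16 (standard error 0.150, adjusted p 2.85e-04). SEMA3F had 10.5, 11.6 and 12.4 FPKM there, against 19.6, 23.3 and 23.8 FPKM with scramble siRNA, a log2 fold change of -0.89 (standard error 0.114, adjusted p 2.75e-04). For both genes all 3 values lay under the lowest scramble siRNA value. The scramble shRNA levels were lower than the scramble siRNA levels, at 9.10 ± 1.05 FPKM for SEMA3B and 7.43 ± 0.572 FPKM for SEMA3F (SD, n = 3). With EZH2 shRNA, SEMA3B had 5.50, 7.11 and 7.44 FPKM, against 8.001, 9.19 and 10.1 FPKM with scramble shRNA. These values did not overlap, but the log2 fold change of -0.40 (95% interval -0.73 to -0.069, unadjusted) was not called, with an adjusted p of 0.151. SEMA3F overlapped between these groups, at 6.98 ± 1.12 FPKM with EZH2 shRNA and 7.43 ± 0.572 FPKM with scramble shRNA (SD, n = 3 each). The antisense gene SEMA3B-AS1 has a row of its own in the table, and since the strand setting of the counting is not given, reads of SEMA3B and of its antisense partner cannot be told apart.

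The transmembrane semaphorin SEMA6B, a ligand of A-type plexins, was called lower in libraries labelled ZRANB1 siRNA, at 24.9, 28.6 and 33.2 FPKM against 33.1, 44.0 and 47.6 FPKM with scramble siRNA. Its groups touched, and the call (log2 fold change -0.50, adjusted p 0.0442) held in 7 of 13 other settings, with adjusted p from 0.0161 to 0.158. It had 19.6, 23.5 and 25.5 FPKM with EZH2 shRNA, against 18.6, 22.1 and 23.4 FPKM with scramble shRNA, and was not called there (adjusted p 0.797). SEMA6B was the most abundant semaphorin with scramble siRNA, at 24.6% of the summed semaphorin level there, where SEMA7A led with scramble shRNA at 28.7%.

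**Figure D2:**
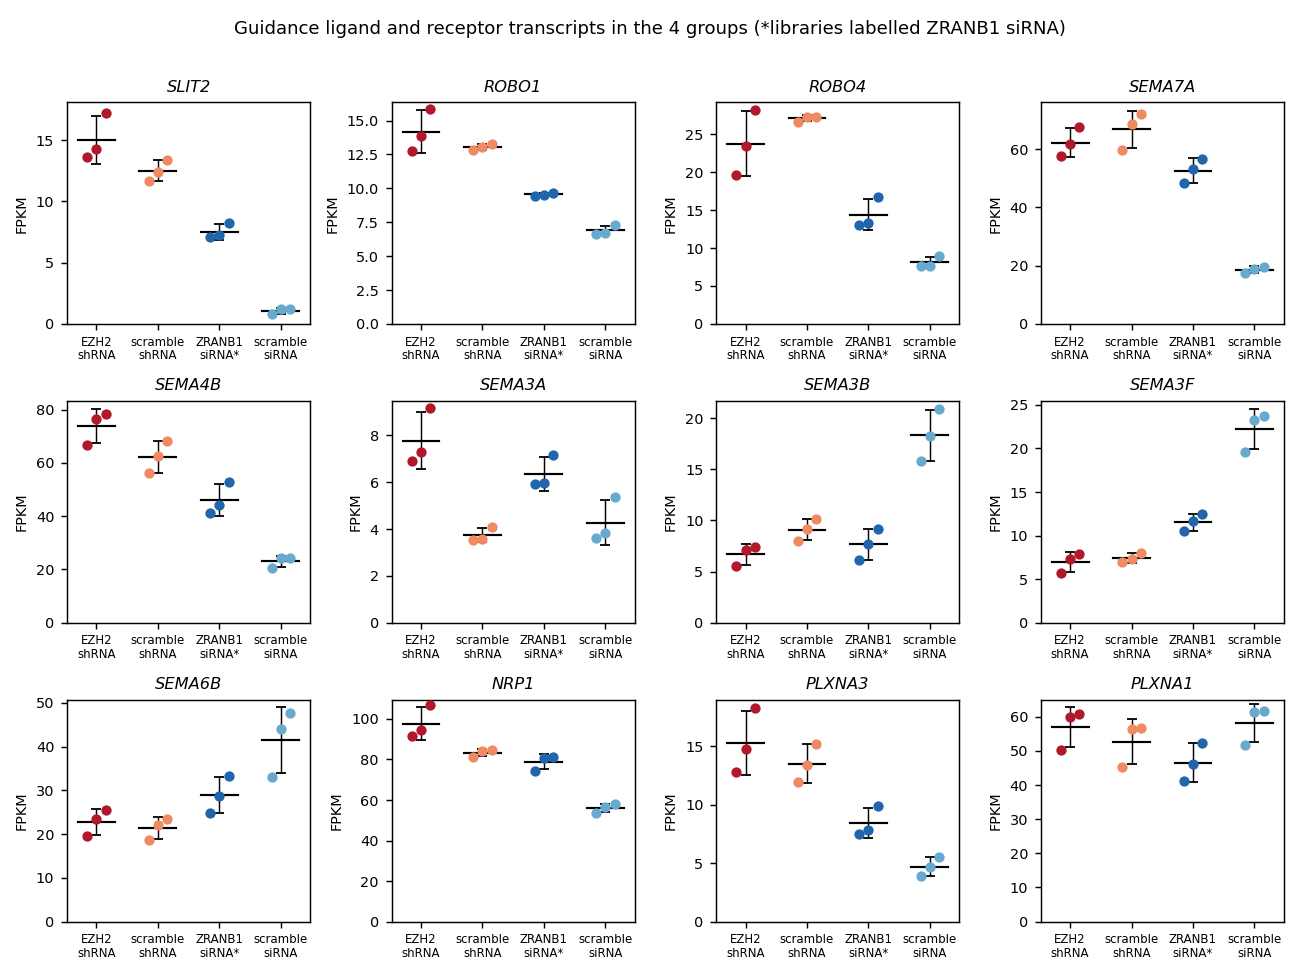
FPKM of 12 members in the 4 groups, with each axis starting at 0. Points are the 3 values of a group from low to high, long lines are means and error bars are 1 SD. SLIT2, ROBO1, ROBO4, SEMA7A, SEMA4B, NRP1 and PLXNA3 are lowest with scramble siRNA, and SEMA3B, SEMA3F and SEMA6B are highest there, whereas SEMA3A is highest with EZH2 shRNA.

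The sequences before the transcription start of the members with the largest rises and falls are shown because SLIT2 and SEMA7A stood higher, and SEMA3B and SEMA3F lower, in the same libraries. They are the 250 bases before each RefSeq start in build GRCh38.p14, while the submitters' notes name hg19 for the study's values, and capitals mark CG dinucleotides, the pairs that are dense in CpG islands.
SLIT2 (chr4:20251655-20251904, plus strand): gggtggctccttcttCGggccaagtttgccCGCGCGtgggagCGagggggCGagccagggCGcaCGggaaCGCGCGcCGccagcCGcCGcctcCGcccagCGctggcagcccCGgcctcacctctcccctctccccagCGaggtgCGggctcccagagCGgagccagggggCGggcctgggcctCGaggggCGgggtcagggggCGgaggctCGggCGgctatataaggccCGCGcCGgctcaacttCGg
SEMA7A (chr15:74433959-74434208, minus strand): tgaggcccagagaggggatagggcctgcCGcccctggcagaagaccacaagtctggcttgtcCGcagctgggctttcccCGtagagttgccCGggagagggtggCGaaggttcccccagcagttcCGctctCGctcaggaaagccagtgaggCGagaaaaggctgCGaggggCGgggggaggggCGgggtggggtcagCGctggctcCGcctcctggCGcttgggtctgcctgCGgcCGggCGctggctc
SEMA3B (chr3:50272869-50273118, plus strand): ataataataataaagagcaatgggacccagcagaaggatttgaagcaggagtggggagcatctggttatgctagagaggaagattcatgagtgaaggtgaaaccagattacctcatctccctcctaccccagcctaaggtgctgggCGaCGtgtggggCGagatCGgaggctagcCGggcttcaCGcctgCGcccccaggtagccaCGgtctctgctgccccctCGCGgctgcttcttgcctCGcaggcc
SEMA3F (chr3:50154808-50155057, plus strand): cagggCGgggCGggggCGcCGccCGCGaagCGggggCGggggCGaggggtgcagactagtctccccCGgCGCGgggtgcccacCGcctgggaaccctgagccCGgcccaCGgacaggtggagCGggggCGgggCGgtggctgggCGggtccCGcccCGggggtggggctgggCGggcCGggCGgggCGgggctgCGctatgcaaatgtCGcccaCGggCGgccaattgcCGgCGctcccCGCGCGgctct

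The SLIT2 stretch held 30 CG dinucleotides, more than 87.8% of the 27305 human promoter stretches of this length. The SEMA7A stretch held 17 and the SEMA3B stretch 11, while SEMA3F, with 34, was denser than 93.4% of stretches. The median was 11 over all stretches and 21 over those of tested genes. Each pair thus had 1 stretch above and 1 below the median of tested genes. Sequences were found for 21 of the 24 tested members, with SEMA3A, SEMA6B and NRP1 not matched. Searched on both strands, the NF-kB consensus motif was in 0 of these 21, beside 2.0% of 8701 tested genes. The pattern TGANTCA, a loose form of the AP-1 motif with any middle base, was in 1, PLXNC1, beside 3.9%. The PLXNC1 match reads TGATTCA, whereas the usual AP-1 motif has C or G in the middle. The hypoxia factor core ACGTG was in 2, SEMA3B and SEMA4D, beside 24.2%. SEMA4D was also the 1 member with CACGTG, which contains this core, beside 9.1% of tested genes. A match is a description of the letters in this window.

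SEMA3A, the classic repellent that signals through NRP1 and A-type plexins, was the member called with EZH2 shRNA. It had 6.88, 7.27 and 9.16 FPKM, against 3.54, 3.57 and 4.07 FPKM with scramble shRNA. All 3 values lay above the control range, and the mean was 2.08 times the control mean, with a log2 fold change of 0.88 (standard error 0.136, adjusted p 0.00349). It was also higher in libraries labelled ZRANB1 siRNA, at 5.91, 5.95 and 7.17 FPKM against 3.63, 3.81 and 5.38 FPKM with scramble siRNA. That call (log2 fold change 0.49, adjusted p 0.0305) held in 6 of 13 other settings, with adjusted p from 0.00849 to 0.116. The call with EZH2 shRNA held in all 13, though not when a log2 fold change of at least 1 was asked for as well. Among the 13, summed rows and scaling factors near 1 could hardly change any member. Between the controls SEMA3A was not called, with a log2 difference of 0.14 (95% interval -0.16 to 0.44).

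SEMA3A has 3 other class 3 semaphorins near it on chromosome 7. In RefSeq order the protein-coding genes run SEMA3C, HGF, CACNA2D1, PCLO, SEMA3E, SEMA3A and SEMA3D, so that SEMA3E, SEMA3A and SEMA3D follow each other directly. SEMA3E, a ligand of PLXND1, had 0.521, 0.533 and 0.818 FPKM with EZH2 shRNA, against 0.173, 0.195 and 0.236 FPKM with scramble shRNA. SEMA3D had 1.07, 1.42 and 1.73 FPKM with EZH2 shRNA, against 0.654, 0.707 and 0.906 FPKM with scramble shRNA. Neither gene's groups overlapped. Both lay under the filter. In the fit with no filter, SEMA3E was called (adjusted p 0.0139) and SEMA3D was not (adjusted p 0.0561). SEMA3E stood at 0.560 ± 0.108 FPKM in libraries labelled ZRANB1 siRNA and at 0.527 ± 0.0947 FPKM with scramble siRNA, and SEMA3D at 0.958 ± 0.166 FPKM in libraries labelled ZRANB1 siRNA and 0.551 ± 0.148 FPKM with scramble siRNA (SD, n = 3 each). In that fit SEMA3E was also called higher with scramble siRNA than with scramble shRNA (adjusted p 0.00588). The genes next to them were looked up for their position after these values were seen. PCLO had group means of 0.631 FPKM with EZH2 shRNA and 0.364 FPKM with scramble shRNA, CACNA2D1 had 1.41 and 1.08 FPKM, and the growth factor gene HGF was listed at 0 in both. SEMA3C, at the other end of the stretch, was the most abundant of these genes at 31.3 ± 7.64 FPKM with EZH2 shRNA and 28.7 ± 2.87 FPKM with scramble shRNA (SD, n = 3 each). It was not called there (adjusted p 0.775), and fell by 0.71 on the log2 scale with scramble siRNA against the scramble shRNA (adjusted p 0.00309).

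**Figure D3:**
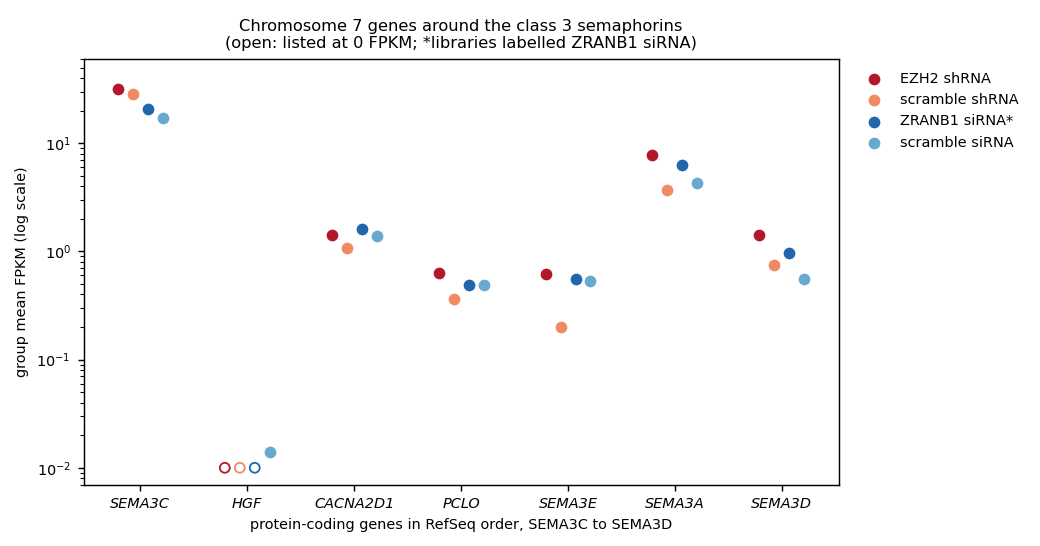
Group mean FPKM, on a log axis, of the protein-coding genes from SEMA3C to SEMA3D in their order on chromosome 7. SEMA3E, SEMA3A and SEMA3D have higher means with EZH2 shRNA (0.624, 7.77 and 1.40 FPKM) than with scramble shRNA (0.201, 3.73 and 0.755 FPKM).

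None of the other 3 tested class 4 semaphorins was called by limma against its own control. SEMA4C stood at 13.99 ± 1.49 FPKM with EZH2 shRNA and 18.8 ± 3.07 FPKM with scramble shRNA, and at 10.6 ± 0.884 FPKM in libraries labelled ZRANB1 siRNA and 10.3 ± 1.37 FPKM with scramble siRNA (SD, n = 3 each). SEMA4D, a ligand of PLXNB1 that also acts in the immune system, stood at 10.6 ± 0.410 and 10.2 ± 0.623 FPKM with the EZH2 and scramble shRNAs, and at 7.40 ± 0.957 and 5.93 ± 0.754 FPKM in libraries labelled ZRANB1 siRNA and with scramble siRNA (SD, n = 3 each). SEMA4C did not overlap between the shRNA groups (adjusted p 0.108), nor SEMA4D between the siRNA groups (adjusted p 0.0842). Between the controls SEMA4C was lower by 0.80 and SEMA4D by 0.69 on the log2 scale with scramble siRNA. SEMA4F ranged from 1.85 to 2.81 FPKM, with its 3 highest values in the EZH2 shRNA group, where its adjusted p was 0.0729.

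Summed over the 20 semaphorins, group means came to 243 FPKM with EZH2 shRNA, 233 FPKM with scramble shRNA, 199 FPKM in libraries labelled ZRANB1 siRNA and 169 FPKM with scramble siRNA. Class 4 shared this order and class 3 did not. Class 4 came to 102, 93.7, 66.5 and 41.6 FPKM in the same 4 groups, whereas class 3 came to 55.0, 50.1, 48.1 and 64.1 FPKM. Classes 5 to 7 came to 86.5, 89.2, 84.0 and 63.2 FPKM, with scramble shRNA highest. No error can be given for these sums, since a column does not follow 1 library. Within class 3, SEMA3C made up 57.0% of the sum with EZH2 shRNA and 57.3% with scramble shRNA, and 42.6% in libraries labelled ZRANB1 siRNA and 26.8% with scramble siRNA, where SEMA3F led with 34.7%.

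**Figure D4:**
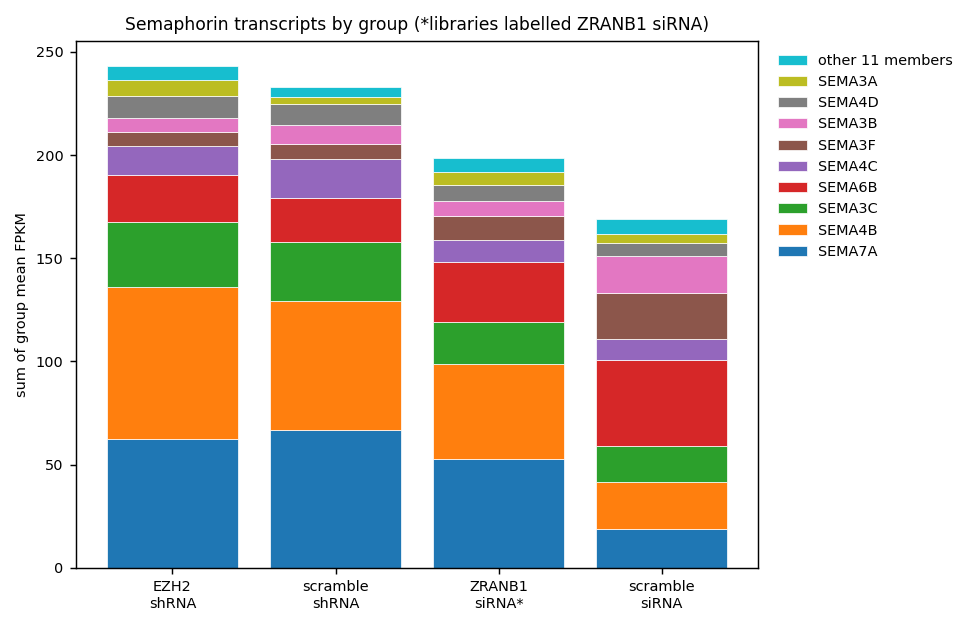
Sums of group mean FPKM over the 20 semaphorins, stacked by gene, for the 4 groups. The sums are 243 FPKM with EZH2 shRNA, 233 FPKM with scramble shRNA, 199 FPKM in libraries labelled ZRANB1 siRNA and 169 FPKM with scramble siRNA, and SEMA6B, SEMA3F and SEMA3B take a larger part of the last.

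Among the receptors, NRP1, which serves class 3 semaphorins and VEGF alike, had the highest mean over all 12 values of any member, though with scramble siRNA the plexin PLXNA1 averaged more (58.2 FPKM, against 56.0 FPKM for NRP1). NRP1 had 74.5, 80.5 and 81.4 FPKM in libraries labelled ZRANB1 siRNA, against 53.7, 56.5 and 57.9 FPKM with scramble siRNA, a log2 fold change of 0.48 (standard error 0.071, adjusted p 6.96e-04). With EZH2 shRNA it had 91.6, 94.8 and 107 FPKM, against 81.3, 84.2 and 84.5 FPKM with scramble shRNA. These values did not overlap, but the log2 fold change of 0.22 was not called (adjusted p 0.0902). NRP2, which binds SEMA3F and VEGFC, was far scarcer. It had 2.69, 2.77 and 3.37 FPKM with EZH2 shRNA, against 3.80, 3.84 and 4.10 FPKM with scramble shRNA, the opposite order to NRP1. Its log2 fold change of -0.32 was not called (adjusted p 0.0612, and from 0.0369 to 0.172 in 12 other settings). With siRNA, NRP2 had 2.73, 2.93 and 3.04 FPKM in libraries labelled ZRANB1 siRNA, against 2.26, 2.27 and 2.69 FPKM with scramble siRNA (adjusted p 0.174). NRP1 made up between 95.5% and 97.1% of the summed neuropilin level in every group.

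Of 8 tested plexins, 1 was called in libraries labelled ZRANB1 siRNA, a share near the 16.6% of all tested genes. PLXNA3, a co-receptor of SEMA3F with NRP2, was the plexin called, at 7.51, 7.87 and 9.89 FPKM against 3.92, 4.64 and 5.55 FPKM with scramble siRNA. Its groups did not overlap, and the log2 fold change came to 0.73 (standard error 0.149, adjusted p 0.00622). PLXNA3 was not called with EZH2 shRNA, at 12.8, 14.8 and 18.2 FPKM against 11.96, 13.4 and 15.2 FPKM with scramble shRNA. PLXNA1 and PLXNB2, the most abundant plexins, were called in no comparison. PLXNA1 had 57.0 ± 5.78 FPKM with EZH2 shRNA and 52.7 ± 6.51 FPKM with scramble shRNA, and 46.6 ± 5.65 FPKM in libraries labelled ZRANB1 siRNA and 58.2 ± 5.56 FPKM with scramble siRNA (SD, n = 3 each). PLXNB2 had 41.6 ± 6.37 FPKM with EZH2 shRNA and 48.0 ± 6.29 FPKM with scramble shRNA, and 41.2 ± 4.98 FPKM in libraries labelled ZRANB1 siRNA and 39.3 ± 3.99 FPKM with scramble siRNA (SD, n = 3 each). The 95% intervals of the PLXNB2 log2 fold change ran from -0.51 to 0.097 with EZH2 shRNA and from -0.24 to 0.37 in libraries labelled ZRANB1 siRNA. PLXND1, the receptor of SEMA3E, and PLXNB1, that of SEMA4D, were called in no comparison either. PLXNB3 was called between the controls, lower by 0.85 on the log2 scale with scramble siRNA, and PLXNA2 was higher there by 0.48. PLXNB3 stood at 6.14 ± 1.11 FPKM with EZH2 shRNA and 6.05 ± 0.209 FPKM with scramble shRNA, and at 3.58 ± 0.537 FPKM in libraries labelled ZRANB1 siRNA and 2.94 ± 0.516 FPKM with scramble siRNA (SD, n = 3 each). PLXNC1, a receptor of SEMA7A that passed the filter only through the siRNA groups, ran from 0.445 to 0.988 FPKM in the shRNA groups and from 0.924 to 1.60 FPKM in the siRNA groups. PLXNA2 had 2.78, 2.92 and 3.16 FPKM with EZH2 shRNA, against 2.03, 2.104 and 2.68 FPKM with scramble shRNA, and 2.57, 2.82 and 3.11 FPKM in libraries labelled ZRANB1 siRNA, against 3.37, 3.62 and 3.63 FPKM with scramble siRNA. Neither pair of PLXNA2 groups overlapped, but neither difference was called (adjusted p 0.121 with EZH2 shRNA and 0.111 in libraries labelled ZRANB1 siRNA).

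The means of the 13 members under the filter, over the 12 values, ran from 0.00143 FPKM for SEMA5B to 0.975 FPKM for SEMA6C. SEMA3G had 0.529, 0.535 and 0.545 FPKM in libraries labelled ZRANB1 siRNA, against 0.758, 0.983 and 1.28 FPKM with scramble siRNA, and at most 0.223 FPKM in either shRNA group. SEMA6D had 0.289, 0.311 and 0.340 FPKM in libraries labelled ZRANB1 siRNA, against 0.490, 0.515 and 0.643 FPKM with scramble siRNA, and at most 0.127 FPKM in the shRNA groups. Neither gene's values overlapped between the siRNA groups, and in the fit with no filter both were called lower (adjusted p 0.0117 and 0.00252). SEMA6A had group means of 0.450 FPKM with EZH2 shRNA, 0.331 FPKM with scramble shRNA, 0.872 FPKM in libraries labelled ZRANB1 siRNA and 1.03 FPKM with scramble siRNA. SEMA4A, SEMA5A, SEMA5B, ROBO2 and SLIT3 stayed under 0.12 FPKM in all 12 values, PLXNA4 under 0.23 FPKM and SEMA4G under 0.54 FPKM.

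Partners of these receptors were read from 5 lists, which were chosen with earlier results of these data known and are described by counts and medians only. Among 11 tested co-receptors and shared ligands, 6 were called in libraries labelled ZRANB1 siRNA, each of them higher (54.5%, beside 16.6% of all tested genes), with a median log2 fold change of 0.56 beside -0.017 over all tested genes. VEGFA and VEGFC, growth factors that bind neuropilins, stood at 131 ± 5.05 FPKM against 33.2 ± 2.89 FPKM with scramble siRNA, and at 23.8 ± 2.08 FPKM against 10.2 ± 1.52 FPKM (SD, n = 3 each). With scramble shRNA they stood at 178 ± 12.8 and 49.2 ± 1.49 FPKM. PGF, another ligand of NRP1, stood at 45.3 ± 7.77 FPKM against 19.0 ± 2.31 FPKM with scramble siRNA. L1CAM, an adhesion molecule that joins NRP1 in the SEMA3A receptor, was the 1 gene of this list called with EZH2 shRNA. It stood at 30.7 ± 3.76 FPKM, against 15.2 ± 1.40 FPKM with scramble shRNA (SD, n = 3 each, adjusted p 4.74e-04). L1CAM was called higher in libraries labelled ZRANB1 siRNA too, at 19.1 ± 2.02 FPKM against 7.70 ± 0.596 FPKM with scramble siRNA (adjusted p 1.56e-05). Between the controls, 2 genes of the list were higher and 7 lower with scramble siRNA, among them MST1R, a receptor kinase that pairs with B-type plexins, at 0.332 ± 0.0444 FPKM against 4.21 ± 0.351 FPKM with scramble shRNA (SD, n = 3 each). MST1R stood at 1.51 ± 0.140 FPKM in libraries labelled ZRANB1 siRNA. NRCAM, 1 of the 2 higher, averaged 0.746 and 0.806 FPKM with the EZH2 and scramble shRNAs. It passed the filter only through the siRNA groups, where it is higher. MST1R averaged under 1 FPKM over the siRNA groups together and passed only through the shRNA groups, where it is higher. Neither gene lends the counts between the controls support.

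Of 26 tested genes below plexins, 1 was higher and 1 lower with EZH2 shRNA, the kinases GSK3B (15.2 ± 1.42 FPKM against 11.0 ± 1.03 FPKM) and LIMK1 (19.9 ± 2.52 FPKM against 27.6 ± 3.09 FPKM, SD, n = 3 each). The calls were lost in 4 and 5 of 13 other settings. In libraries labelled ZRANB1 siRNA, 3 were higher and 1 lower. FYN, a kinase downstream of SEMA3A, stood at 15.8 ± 1.21 FPKM against 10.7 ± 0.693 FPKM with scramble siRNA, and DPYSL2, which encodes a collapsin response mediator, at 56.7 ± 2.66 FPKM against 70.7 ± 4.17 FPKM. The others called were RRAS and SH3BP1. Between the controls, 5 were higher and 8 lower with scramble siRNA. The 26 genes thus had 7.69%, 15.4% and 50% called in these 3 comparisons, beside 6.41%, 16.6% and 50.6% of all tested genes. SH3BP1, 1 of the 8 lower between the controls, averaged 1.55 FPKM in libraries labelled ZRANB1 siRNA and 0.0760 FPKM with scramble siRNA. It passed the filter only through the shRNA groups, where it is higher, so it lends that count no support. Of 22 tested ROBO partners, 1 was higher with EZH2 shRNA, EVL, whose call was lost in 8 of 13 other settings. In libraries labelled ZRANB1 siRNA 1 was higher, the kinase ABL1, and 1 lower, DAG1, which encodes the SLIT-binding dystroglycan, at 50.7 ± 2.92 FPKM against 61.2 ± 1.60 FPKM with scramble siRNA (SD, n = 3 each). The calls of ABL1, DAG1 and RRAS were each lost in at least 1 other setting. Between the controls, 7 were higher and 5 lower. These shares were 4.55%, 9.09% and 54.5% of the 22, beside the same shares of all genes.

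Of 3 tested netrin and RGM genes, RGMB was higher with EZH2 shRNA, at 21.6 ± 1.14 FPKM against 14.7 ± 0.883 FPKM with scramble shRNA (SD, n = 3 each, adjusted p 0.00203). In libraries labelled ZRANB1 siRNA, NTNG2 was higher and NTN4 lower, calls that were each lost in at least 1 other setting, and between the controls 2 were called, both higher. Of 10 tested ephrin and Eph genes, 0 were called with EZH2 shRNA by limma, while 5 had an unadjusted p below 0.05. The share of all tested genes under that unadjusted threshold was not counted, so the 5 cannot be read as a trait of this list. In libraries labelled ZRANB1 siRNA 2 were higher, the receptor EPHB2, at 17.2 ± 1.37 FPKM against 8.29 ± 0.497 FPKM with scramble siRNA (SD, n = 3 each), and the ligand EFNB2. Between the controls, 3 were higher and 3 lower. The ephrin and Eph genes thus had 0%, 20% and 60% called in these 3 comparisons, and the netrin and RGM genes 33.3%, 66.7% and 66.7%. Beside them stand 6.41%, 16.6% and 50.6% of all tested genes.

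Markers of the cell line were present in all groups. Of 8 genes known from MDA-MB-231, all were tested, with VIM at group means between 2573 and 2836 FPKM. S100A4 of this list stood at 105 FPKM with EZH2 shRNA and 405.5 FPKM with scramble shRNA. It had 49.6 FPKM in libraries labelled ZRANB1 siRNA and 16.3 FPKM with scramble siRNA. Of the 8, 1 was called lower with EZH2 shRNA (12.5%, beside 6.41% of all tested genes). In libraries labelled ZRANB1 siRNA, 2 were higher and 2 lower (50%, beside 16.6%). Between the controls, 2 were higher and 4 lower with scramble siRNA (75%, beside 50.6%). From scramble shRNA to scramble siRNA, for example, CD44 went from 264.5 to 118.2 FPKM and CAV1 from 273 to 333 FPKM. The hormone receptor gene PGR was listed at 0 in all 12 values, and ESR1 and CDH1 had group means of at most 0.0131 and 0.0450 FPKM. Other genes of this luminal list were expressed, with KRT18 at group means of 247 to 353 FPKM and KRT8 at 183.5 to 267 FPKM. EPCAM ran from 3.53 to 8.23 FPKM, GATA3 from 3.7 to 6.7 FPKM, ERBB3 from 1.13 to 2.22 FPKM and FOXA1 from 0.131 to 0.520 FPKM. KRT19 had 7.07 and 7.53 FPKM with the EZH2 and scramble shRNAs. It had 28.6 FPKM in libraries labelled ZRANB1 siRNA and 47.4 FPKM with scramble siRNA. Of 8 blood cell markers 2 were listed at 0 throughout and PTPRC reached a group mean of at most 0.0211 FPKM, with CD68, also found in tumour lines, at 34.4 to 41.7 FPKM. CD14 of this list had group means of 0.867 FPKM in libraries labelled ZRANB1 siRNA and 0.243 FPKM with scramble siRNA, and of 2.87 and 3.90 FPKM with EZH2 and scramble shRNA. Of 8 neural and glial markers 4 had means under 0.1 FPKM, and MBP was the highest of the list, at 15.7 to 21.4 FPKM. The 8 fibroblast markers summed to 20.2 FPKM with EZH2 shRNA and 25.4 FPKM with scramble shRNA, and to 17.9 FPKM in libraries labelled ZRANB1 siRNA and 8.83 FPKM with scramble siRNA. COL1A1, the 1 tested, made up most of this, at group means of 19.3, 24.6, 17.0 and 8.14 FPKM in the same order. LUM had 0.352, 0.213 and 0.117 FPKM and was listed at 0 with scramble siRNA, where DCN, PDGFRA, COL3A1 and FAP were listed at 0 too. PDGFRB ran from 0.307 FPKM with EZH2 shRNA to 0.687 FPKM with scramble siRNA, and DCN, PDGFRA, COL3A1, COL1A2 and FAP had means of at most 0.161 FPKM. The luminal list (10 genes) summed to 581 FPKM in libraries labelled ZRANB1 siRNA and 682.5 FPKM with scramble siRNA, against 448 and 480 FPKM with the EZH2 and scramble shRNAs. Of its 6 tested genes, 5 were higher and 1 lower with scramble siRNA than with scramble shRNA (100%, beside 50.6% of all tested genes). What part any of these has in the members' differences was not tested.

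The difference of both effects, that in libraries labelled ZRANB1 siRNA minus that of the EZH2 shRNA, was called for 8 of the 24 tested members, 33.3% beside 10.5% of all tested genes. It was positive for 5 and negative for 3, where 6.91% and 3.58% of all tested genes were called. SLIT2, SEMA7A, ROBO4, SEMA4B and NRP2 had the more positive effect in libraries labelled ZRANB1 siRNA, and SEMA3F, SEMA3B and PLXNA2 the more negative one. The calls of SEMA3B, PLXNA2 and NRP2 were lost in 10 of 18, 7 of 17 and 5 of 17 other settings, and leaving out 1 value gave 5 to 10 members called. For SEMA3A, called in both comparisons, the difference was -0.40 (95% interval -0.82 to 0.027), with an adjusted p of 0.242. Each effect is relative to its own control, and the controls differed in these genes as given above. EZH2 was targeted only by a transduced shRNA and ZRANB1 only by a transfected siRNA. A difference between targets therefore cannot be told apart from a difference of delivery or of the controls.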

How the data were processed

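RNA was sequenced from 12 LM2 libraries in 4 groups of 3. The authors' table, as deposited, holds FPKM in 26006 rows, fragments divided by transcript length and library size. The build hg19 and the tools Cufflinks 2.2.1, Cuffdiff 2.2.1, TopHat2 2.1.1 and SAMtools come from the submitters' processing notes. Not given in the sources used here were options, annotation, strand setting and how libraries were scaled. In every row with 3 different values in a group (15454 to 15850 rows), these stood in text order.

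Of rows that repeat a symbol the highest was used, and no member was repeated. Values were tested as log2(FPKM + 1) where the mean reached 1 FPKM, in limma 3.58.1 (R 4.3.3) with a mean for each of the 4 groups, 8 residual degrees of freedom, a trend of the variance with intensity, and p-values adjusted by Benjamini-Hochberg over 11929 genes. The steps were tested on simulated data. Precision is limited by 3 values per group. An exact permutation test of a single gene, two-sided, cannot give p under 0.1 here.

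The members and gene lists were chosen with earlier results of these data known. Named were the targets, members called in any comparison (up to 12 per direction), the 2 most abundant members of each family, and up to 4 called genes per list, comparison and direction; other members are given by values and ranges, and some were singled out after their values were seen. Alternatives were the compared groups alone, no trend, no filter or one at 5 FPKM, a pseudocount of 0.1, 1 scaling factor per group, summed rows, a required log2 fold change of 1 in size, and leaving out 1 value after randomly ordering each group. RefSeq (GRCh38.p14) gave gene order for all 37 members and promoter sequences for 33. Matplotlib 3.10.9 (Python 3.11.15) drew the figures.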

Additional observations from a re-analysis of the deposited data

Results flagged for a closer look

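For 8 members the effect in the libraries labelled ZRANB1 siRNA differed from that of the EZH2 shRNA by limma's test of the difference itself. Target and delivery changed together between these effects, so their parts in the difference cannot be told apart. On the log2 scale the difference, ZRANB1 siRNA effect minus EZH2 shRNA effect, was 1.80 for SLIT2 (adjusted p 2.62e-05), 1.54 for SEMA7A (adjusted p 1.9e-05), 0.95 for ROBO4 (adjusted p 0.00564), 0.72 for SEMA4B (adjusted p 0.0123) and 0.52 for NRP2 (adjusted p 0.0246). It was -0.80 for SEMA3F (adjusted p 0.00834), -0.76 for SEMA3B (adjusted p 0.0421) and -0.52 for PLXNA2 (adjusted p 0.0308). NRP2 and PLXNA2 were not called against their own control in either comparison. The calls of NRP2, SEMA3B and PLXNA2 were lost in 5 of 17, 10 of 18 and 7 of 17 other settings.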

How the results depend on the processing

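Of 1124 log2 fold changes of named members in other settings, 1069 kept their direction and their side of the threshold. Another 35 lost the call, 6 gained it, 14 that were never called changed sign, and 0 called values reversed. Not every setting could move a member. No member was repeated, so summed rows left the members' values as they were, and the scaling factors ran from 0.998 to 1.009. Asking also for a log2 fold change of 1 or more in size left 0 members called with the EZH2 shRNA, 3 in the libraries labelled ZRANB1 siRNA, 6 between the controls and 2 for the difference of effects. With the EZH2 shRNA, 2 members were called with no filter (beside 4.44% of all genes) and 3 with no intensity trend (beside 6.44%), by limma. Leaving out a single value, in a random order drawn within each gene, gave 1 to 2 members called with the EZH2 shRNA, 9 to 10 in the libraries labelled ZRANB1 siRNA, 17 to 18 between the controls and 5 to 10 for the difference. The share of all genes called with the EZH2 shRNA, 6.41%, was 1.55% with the compared groups alone and 3.45% to 5.17% without 1 value. Without 1 value this share was 11.7% to 12.3% in the libraries labelled ZRANB1 siRNA, 44.9% to 45.6% between the controls and 8.17% to 9.93% for the difference. With no filter it fell to 10.7% of a larger number of genes in the libraries labelled ZRANB1 siRNA, and to 6.94% for the difference. Between the controls, 24 members were called with no filter, 10 higher and 14 lower, beside 36.2% of all genes. With the filter at 5 FPKM 13 were called there, beside 51.1%, where the filter at 1 FPKM gave 17. The filter also changes how many members are tested. With the fold change asked for, the shares were 0.302%, 1.87%, 8.48% between the controls and 2.59% for the difference. No paired analysis was possible because the columns do not follow libraries. The unknown depth, 3 values per group and the filter limit what can be said of low members.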
